A study of Drosophila melanogaster with 3 samples.

Results

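Mitochondrial ribosomal protein genes of Drosophila melanogaster were taken as the protein-coding genes whose symbol begins with mRpL (named for the large subunit) or mRpS (named for the small subunit). The rule gave 73 genes, 47 with an mRpL and 26 with an mRpS symbol, among the 13945 protein-coding genes on the 6 chromosome arms X, 2L, 2R, 3L, 3R and 4. Binding of heat shock factor, Hsf, was mapped by chromatin immunoprecipitation with sequencing (ChIP-seq) in whole embryos aged 0 to 24 h from a transgenic line in which Hsf carries GFP at its C terminus. Both sexes were pooled, precipitation was with an antibody to GFP, chromatin was sonicated to 200 to 800 bp, and the labels name no heat treatment. The 3 samples were biological replicates of 1 group, so nothing was contrasted between conditions, and in whole embryos the cell types that contributed to a region cannot be told apart. Each region's signal is the authors' own score against a control, used to rank and describe regions within a list, and the read depth behind it is unknown.

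The mitochondrial ribosome translates the few respiratory chain and ATP synthase proteins that mitochondrial DNA encodes. All of its proteins are encoded in the nucleus, made in the cytosol and imported, so their supply depends on nuclear transcription. Hsf is the transcription factor that binds heat shock elements, arrays of short units with the core GAA in alternating orientation, and it is best known for activating chaperone genes after heat.

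Each gene was given the strongest region of the pooled list whose summit was at most 500 bp away from an annotated start of transcription (TSS), and it was noted whether that region was among the optimal peaks, those that passed the irreproducible discovery rate (IDR) procedure, which asks whether regions rank alike between replicates. The regions were thus selected on signal and on distance to a TSS, the genes were chosen by their names, and the counts, signals and ranks that follow are a description. Of the 73 genes, 40 had an optimal peak, 23 had a candidate region that was not optimal and 10 had no candidate. An optimal peak was thus found at 54.8% of the mitochondrial ribosomal protein genes, and by the same rule at 25.9% of all protein-coding genes (3608 of 13945). Among genes with any candidate, the optimal share was 63.5% for the mitochondrial ribosomal protein genes (40 of 63) and 45.7% for all protein-coding genes (3608 of 7889).

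The sequences below show the DNA under strong or informative regions. They come from the RefSeq genome assembly of release 6 (dm6), are written 5′ to 3′ on the strand of the mitochondrial ribosomal protein gene, and have the base at the summit of the pooled region in capitals. The first pair spans the whole interval between the TSS of a mitochondrial ribosomal protein gene and that of the gene transcribed away from it, for the strongest region and the fifth strongest. The third does so for a gene whose partner Droj2 encodes a J-domain co-chaperone, and the last gives 60 bp on each side of the summit at mRpS23, where that interval is longer.

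mRpS10 to Art3, 3R:15229409-15229664, plus strand: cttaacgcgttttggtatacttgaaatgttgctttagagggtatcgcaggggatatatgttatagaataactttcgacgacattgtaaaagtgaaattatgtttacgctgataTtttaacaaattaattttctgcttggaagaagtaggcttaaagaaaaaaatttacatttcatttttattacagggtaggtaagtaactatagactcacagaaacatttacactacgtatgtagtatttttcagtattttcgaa
mRpL24 to betaggt-I, 2L:4945362-4945578, minus strand: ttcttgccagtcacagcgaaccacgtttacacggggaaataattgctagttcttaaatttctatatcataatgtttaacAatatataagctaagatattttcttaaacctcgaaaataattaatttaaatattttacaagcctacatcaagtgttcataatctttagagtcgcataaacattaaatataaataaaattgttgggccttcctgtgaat
mRpS21 to Droj2, 3R:13381810-13382105, minus strand: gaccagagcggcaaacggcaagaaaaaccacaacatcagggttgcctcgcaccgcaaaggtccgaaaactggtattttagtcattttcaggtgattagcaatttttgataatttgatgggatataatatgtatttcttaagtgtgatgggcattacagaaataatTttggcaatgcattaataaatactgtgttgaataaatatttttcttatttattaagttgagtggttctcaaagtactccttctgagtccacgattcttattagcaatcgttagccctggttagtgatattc
mRpS23 summit, 2L:13835398-13835518, minus strand: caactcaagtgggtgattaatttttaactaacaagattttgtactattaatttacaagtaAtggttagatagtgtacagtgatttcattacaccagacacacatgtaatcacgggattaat

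In all 4 the printed ends lay between annotated genes. The DNA within 100 bp of these summits was 30.3% G+C at mRpS10, 31.3% at mRpL24, 27.9% at mRpS21 and 35.8% at mRpS23.

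Signals fell into 4 genes at the top and a long shoulder below them. mRpS10, which encodes the homologue of bacterial small subunit protein S10, had the highest signal of 2392 (FBgn0038307, region 3R:15229319-15229762, summit 143 bp upstream of the TSS in intergenic DNA). That region had pooled rank 6, and ranks 5, 8 and 6 in replicates 1, 2 and 3. mRpL41, a large subunit protein gene with no bacterial counterpart, had a signal of 2313 (FBgn0034001, 2R:15217566-15218007, 142 bp upstream, intergenic), pooled rank 9 and ranks 11, 5 and 5. Each of these regions thus stayed within the strongest 11 of every replicate.

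mRpS23 followed at 2039 (FBgn0260407, 2L:13835255-13835667), with pooled rank 12 and replicate ranks 8, 16 and 20. Its summit lay 386 bp upstream of its own TSS in intergenic DNA, nearer to the TSS of CenG1A, a GTPase-activating protein gene, at 106 bp. mRpL23, the homologue of a bacterial protein that sits beside the exit of the peptide tunnel, had a signal of 1447 with its summit 50 bp downstream of a TSS, in the 5′ UTR (FBgn0035335, 3L:2373418-2373795). Its pooled rank was 33, with ranks of 34, 30 and 37 in the replicates. These 4 genes had regions among the strongest 100 of the pooled list, and all 4 exceeded the 99th percentile of 1024 over all protein-coding genes with a candidate.

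The next region, at mRpL24, ranked 383 with a signal of 519 (2L:4945323-4945640), and 282, 439 and 523 in the replicates. mRpL24 is the homologue of another bacterial protein at the tunnel exit. No region of a mitochondrial ribosomal protein gene ranked between 37 and 282, in the pooled list or in any replicate.

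Behind mRpL24 came mRpL34 with a signal of 445 (pooled rank 524, replicate ranks 707, 411 and 455) and mRpS2 with 348 (rank 872, replicate ranks 1314, 537 and 986). With a TSS window of 200 bp, or with the nearest region in place of the strongest, the region counted for mRpL34 was another one of signal 198. mRpL4, whose bacterial homologue lines the peptide tunnel, had a signal of 305 (rank 1106, replicate ranks 1498, 928 and 901). mRpL37 had 299.6 (rank 1142, replicate ranks 1431, 908 and 1507) and mRpS7, the homologue of a bacterial protein of the small subunit head, 292 (rank 1199, replicate ranks 1244, 1009 and 1799). All of the 10 strongest regions were within the top 1799 of each replicate.

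**Figure D1:**
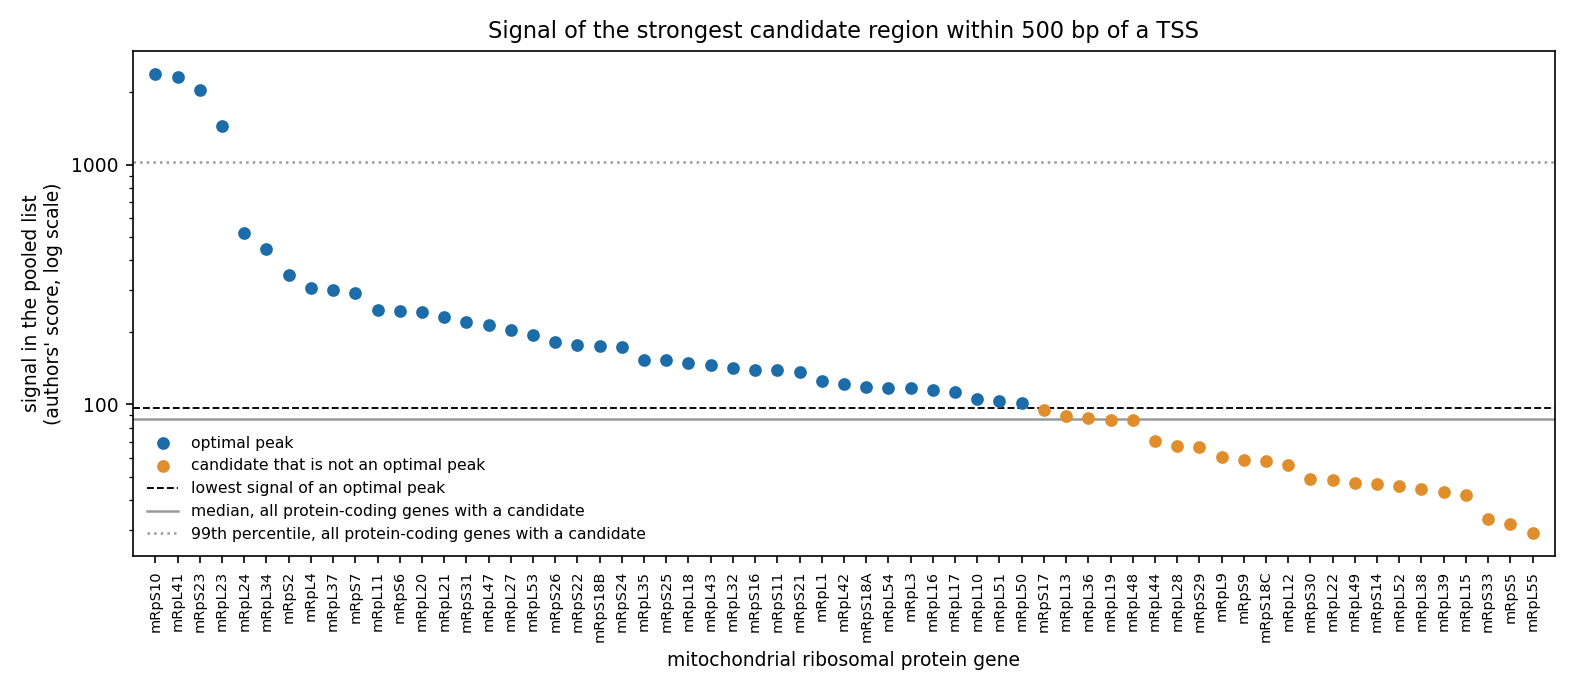
Signal of the strongest candidate region within 500 bp of a TSS in the pooled list (log scale) for the 63 mitochondrial ribosomal protein genes with a candidate, in order, with optimal peaks and other candidates coloured apart. The 4 leading genes lie between 1447 and 2392, mRpL24 follows at 519, and the median of all protein-coding genes with a candidate (87.3) lies under the lowest optimal signal (97.0).

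Over the 63 genes with a candidate the median signal was 122 and the lowest 29.1, at mRpL55. For the 7889 protein-coding genes with a candidate the median was 87.3. Among optimal peaks alone the order was the other way, with a median of 176 for the 40 mitochondrial ribosomal protein genes and 194 for the 3608 protein-coding genes.

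The lowest signal of an optimal peak was 97.0. Just inside it lay mRpL10 with 106, the homologue of a bacterial protein at the base of the ribosomal stalk, mRpL51 with 103.3 and mRpL50 with 101.6. Just outside lay mRpS17 with 95.3, mRpL13 with 89.7 and mRpL36 with 88.1. The order of these neighbours depended on the replicate. mRpS17, outside the optimal list, ranked 5648, 4625 and 5844 in the replicates, whereas mRpL51, inside it, ranked 4447, 13429 and 4103.

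Replicates were compared by asking whether a region overlapped one of the 5756 strongest regions of each replicate's own list, the number of optimal peaks. Of the 40 optimal peaks at mitochondrial ribosomal protein genes, 29 did so in all 3 replicates, 10 in 2 and 1 in 1. The share found in all 3 was 72.5% for the mitochondrial ribosomal protein genes, near the 73.3% of all protein-coding genes with an optimal peak. Starting from each replicate's list instead, 35, 40 and 38 of the 73 genes had a region among the strongest 5756 in replicates 1, 2 and 3, or 51.6% ± 3.45 (SD, n = 3). The same share over all protein-coding genes was 25.7% ± 0.732 (SD, n = 3).

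Among the 40, the genes with the widest spread of replicate ranks were mRpL50, mRpS22, mRpS11, mRpL35 and mRpL3. mRpL50 ranked 3538, 4384 and 24005 in replicates 1, 2 and 3, a 6.78-fold spread. mRpS22 ranked 5563, 1250 and 3016, and mRpS11 ranked 5892, 7874 and 1837. mRpL35 ranked 3827, 1997 and 7839, and mRpL3, the homologue of a bacterial protein that reaches towards the peptidyl transferase centre, ranked 9190, 4554 and 2663. The replicate that ranked the region lowest differed from gene to gene. Across the 55 genes listed in every replicate, Spearman's rho of the ranks was 0.84 between replicates 1 and 2, 0.77 between 1 and 3 and 0.77 between 2 and 3. Those genes share libraries, so this describes the lists and has no p.

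**Figure D2:**
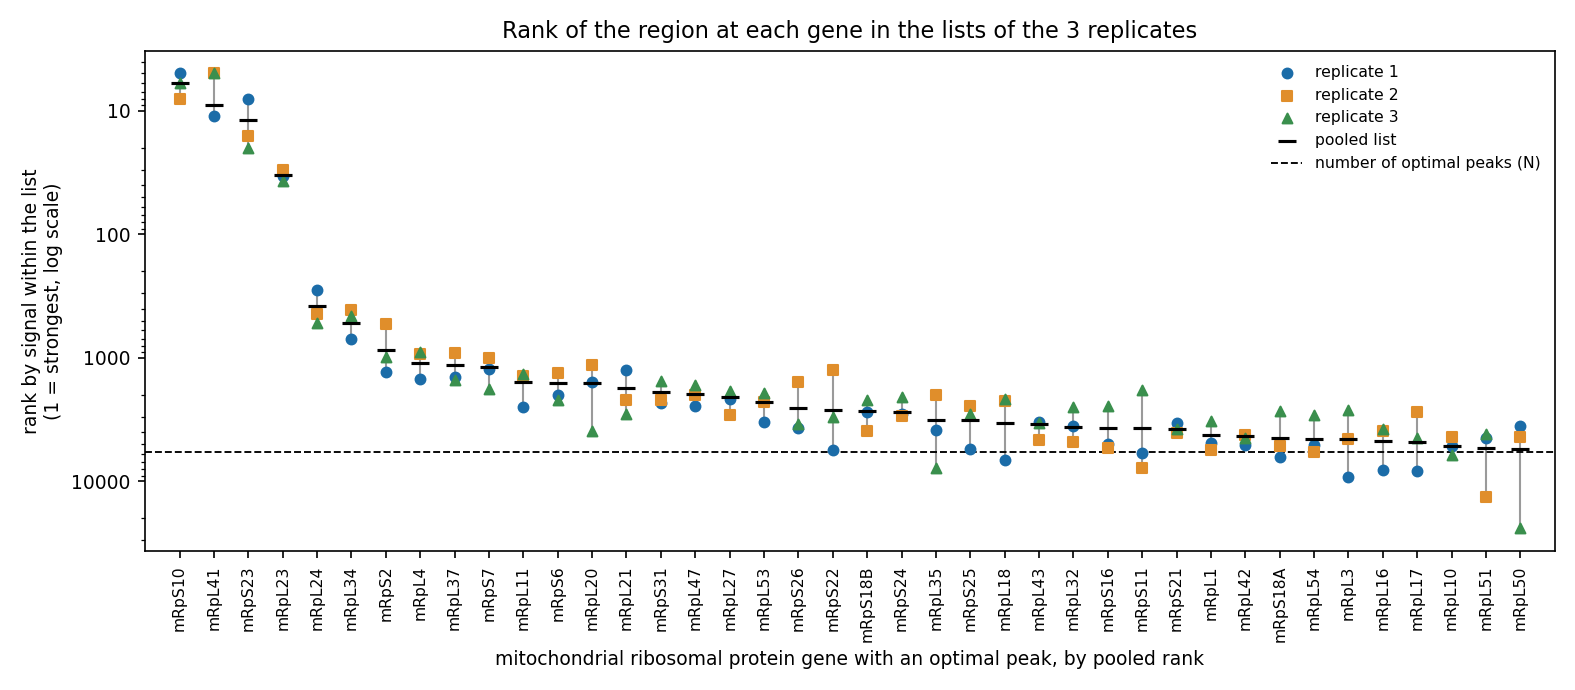
Rank by signal (log scale, 1 is the strongest) of the region at each of the 40 mitochondrial ribosomal protein genes with an optimal peak, in the lists of replicates 1, 2 and 3 and in the pooled list. The 4 leading genes stayed within rank 37 in every replicate, while mRpL50 ran from 3538 to 24005 around the dashed line at 5756.

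Most of these regions lay near the starts of a pair of genes. In 49 of the 63 genes with a candidate, the TSS of another protein-coding gene on the opposite strand lay within 500 bp of the summit, a share of 77.8%. The share was 42.1% for all protein-coding genes with a candidate (3322 of 7889). In all 49 the pair stood head to head, transcribed away from each other, with 20 to 695 bp between the starts and a median of 279 bp. The summit fell between the starts in 36, and outside them in the other pairs. It was nearer to the start of the neighbour in 20 and nearer to that of the mitochondrial ribosomal protein gene in 13. In 16 the distances to the starts differed by no more than 38.9 bp, the median SD of a summit position over the replicates, and the nearer start was not called. A shift of a summit that lies between the starts changes both distances, so some of the 20 and 13 calls are uncertain too. In 48 the same region was also the strongest for the neighbour, so a region counted here cannot be assigned to either gene of the pair from position alone.

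The arrangement went with the optimal call. An opposite-strand start was within reach of the summit at 37 of 40 optimal peaks, and at 12 of 23 other candidates. Read the other way, 75.5% of the genes with such a neighbour had an optimal peak (37 of 49), against 21.4% of those without (3 of 14). Over all protein-coding genes the shares were 61.5% with such a neighbour and 34.3% without. The 3 optimal peaks without a neighbour were those at mRpL41, mRpL4 and mRpL10. The median gap between starts was 281 bp for the 37 optimal pairs and 75 bp for the 12 other pairs. The gaps overlapped widely, running from 20 to 695 bp in the optimal pairs and from 21 to 464 bp in the others. Whether the gene pair or the mitochondrial ribosomal protein gene accounts for the signal was not tested.

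**Figure D3:**
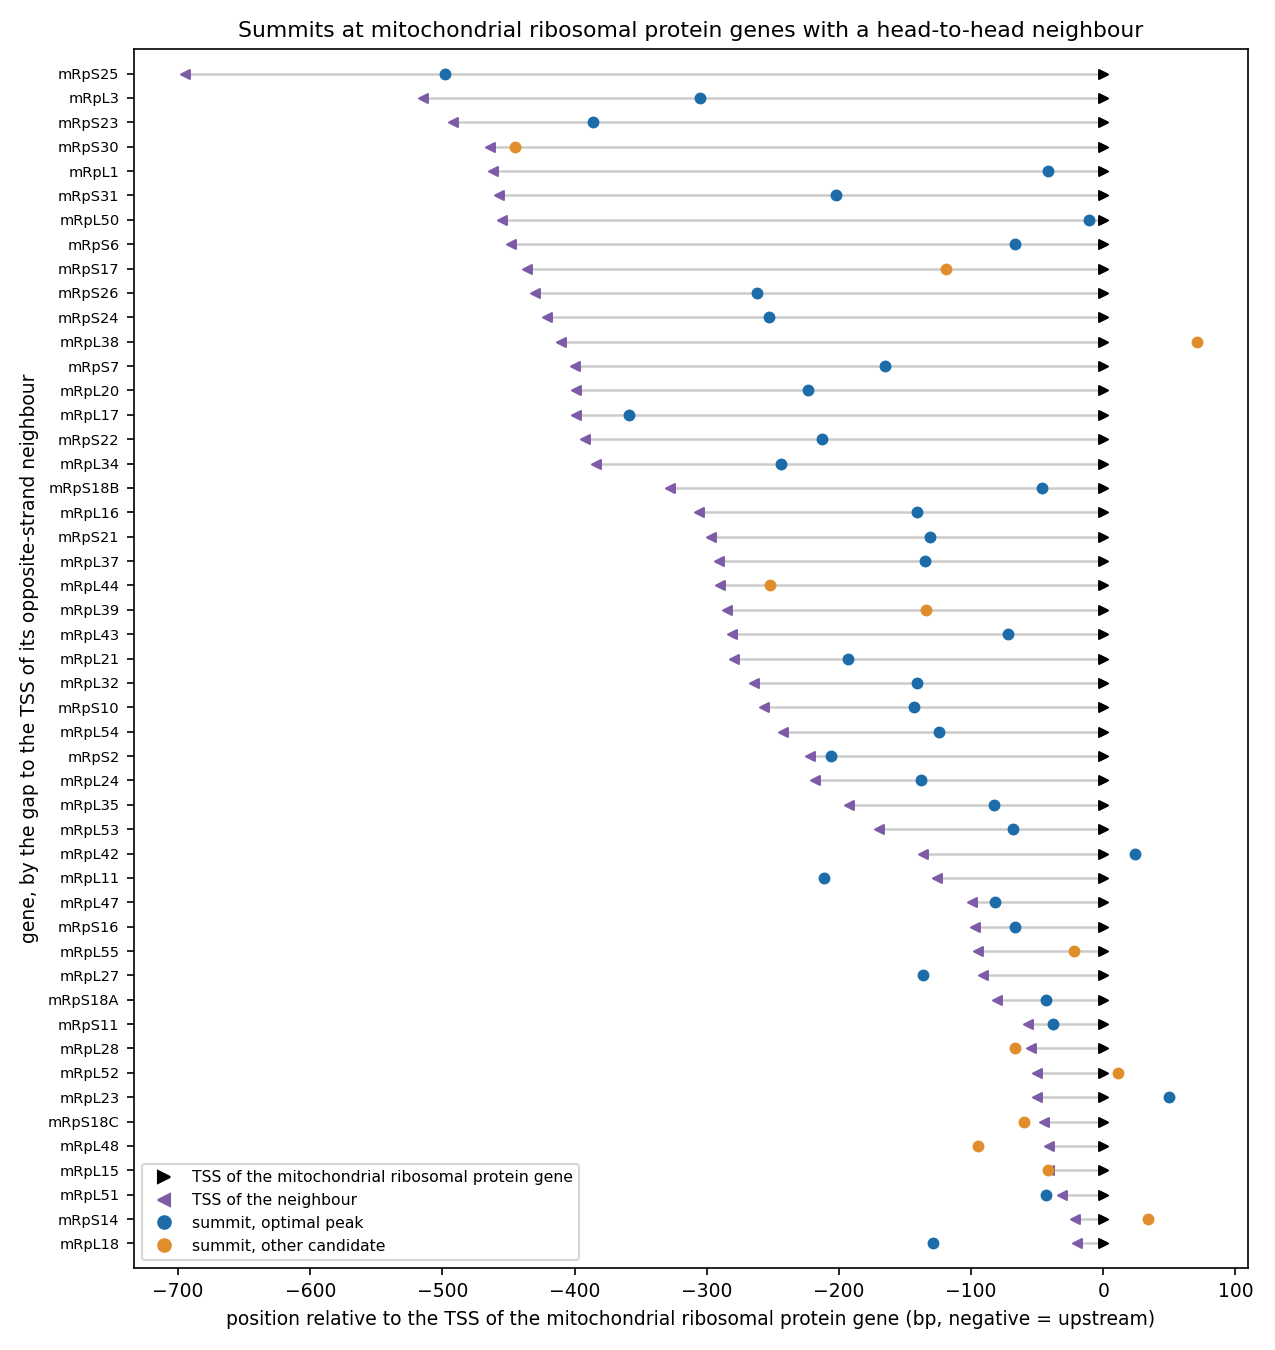
Position of the summit (circles), of the TSS of the mitochondrial ribosomal protein gene (black, at 0) and of the opposite-strand neighbour (purple) for the 49 pairs, in bp along the strand of the mitochondrial ribosomal protein gene, ordered by the gap. The gaps run between 20 and 695 bp, and 36 of the summits fall inside them.

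Partners among the strongest pairs had varied functions. mRpS10 faced Art3, an arginine methyltransferase gene, 257 bp away, and mRpL24 faced betaggt-I, which encodes the beta subunit of a geranylgeranyl transferase, 218 bp away. mRpL34 faced Dg, the dystroglycan gene, mRpS2 faced Mon1, a gene of endosome maturation, and mRpS7 faced Cdk1, the mitotic kinase gene. Farther down, partners included rept, a chromatin remodelling ATPase gene (with mRpL21), AGO1, the microRNA Argonaute gene (with mRpL53), and Droj2 (with mRpS21, signal 137, replicate ranks 3363, 4051 and 3754). Some partners act in mitochondria themselves, and where the other partners act was not checked. Examples were HtrA2, a mitochondrial protease gene, with mRpL11 (signal 247), and Mitofilin, a gene of cristae structure, with mRpL35 (154). Others were Taz, which encodes the cardiolipin remodelling enzyme tafazzin, with mRpL18 (149), and qless, a gene of coenzyme Q synthesis, with mRpL32 (141). ATPsynD, an ATP synthase subunit gene, was paired with mRpL55 (29.1). All partners named here were picked out after their names were seen. The pair of mRpL55 and ATPsynD was the one case in which a region was shared with a gene of the other lists compared here.

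The arrangement is in the annotation and does not need the ChIP data. Counting any opposite-strand coding TSS up to 500 bp upstream of a TSS, whatever the regions, 53 of the 73 mitochondrial ribosomal protein genes were head to head (72.6%), against 27.4% of all protein-coding genes and 39.8% of the 93 cytosolic ribosomal protein genes. By class, the share was 87.5% for mitochondrial ribosomal protein genes with an optimal peak (35 of 40), 56.5% for those with another candidate (13 of 23) and 50% for those with none (5 of 10). The matching shares over all protein-coding genes were 54.9%, 28.1% and 10.4%.

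**Figure D4:**
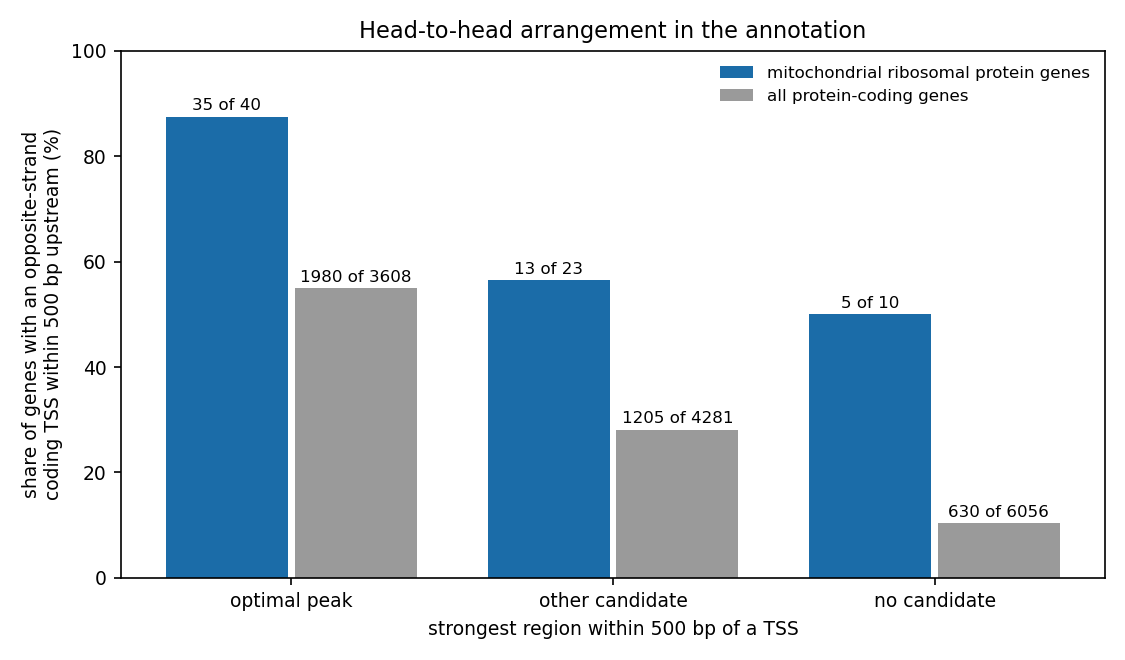
Share of genes with an opposite-strand coding TSS up to 500 bp upstream in the annotation, by the class of the strongest region, for mitochondrial ribosomal protein genes and for all protein-coding genes, with the counts above the bars. The share declines with the class of region in both sets, and it is 87.5% against 54.9% for genes with an optimal peak.

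Summits sat close to the starts. The median summit position was -83 bp relative to the nearest TSS of the mitochondrial ribosomal protein gene (negative is upstream), with 52 of 63 upstream, 47 within 200 bp and 31 within 100 bp. Over all protein-coding genes with a candidate the median was -87 bp. Upstream summits made up 82.5% of those at mitochondrial ribosomal protein genes and 76.4% over all protein-coding genes. The replicates' own lists gave medians of -90, -117 and -100.5 bp. For the 53 genes with a summit in each replicate, the position varied with a median SD of 38.9 bp over the 3 replicates and at most 238 bp. By the annotation of all genes, 43 summits were intergenic, 15 in a 5′ UTR, 4 in coding sequence and 1 in an intron. The UTR or intron could be that of another gene. The summits at mRpL11 (211 bp upstream, 5′ UTR) and mRpL53 (68 bp upstream, intron) lay outside the mitochondrial ribosomal protein gene.

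The 4 summits in coding sequence were at mRpL36, mRpS9, mRpL38 and mRpS33, and no region there was an optimal peak. mRpS33 had the lowest replicate support of any candidate, being listed in replicate 1 only. mRpL36 had the widest spread among the candidates listed in every replicate, with ranks of 22133, 5339 and 3071.

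The 10 genes with no candidate within 500 bp were mRpL2, mRpL14, mRpL30, mRpL33, mRpL40, mRpL45, mRpL46, mRpS28, mRpS34 and mRpS35. mRpL2 and mRpL14 are homologues of bacterial proteins at the peptidyl transferase centre and at the interface of the subunits. The nearest pooled summit was 533 to 4387 bp away. At mRpL30 and mRpL33 it lay 533 and 591 bp upstream, just outside the window, with signals of 26.7 and 143. The region near mRpL33 was an optimal peak of rank 3531. A start of norpA, a phospholipase C gene on the opposite strand, lay within 500 bp of the TSS of mRpL33. Optimal peaks were also the nearest regions to mRpL46 (signal 415, 1903 bp upstream) and mRpL40 (signal 166, 2010 bp downstream). mRpL45 had a region within 500 bp in 2 replicate lists, at ranks 8593 and 12793 in replicates 1 and 3, and none in the pooled list. mRpL14, mRpL30, mRpL40 and mRpS28 had one in the list of replicate 1 alone, at ranks of 13598 to 25507. The lists hold at most 30000 regions each, so a weaker region would not be listed.

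Genes named for the large and for the small subunit had like shares. An optimal peak was found at 25 of 47 mRpL genes (53.2%) and at 15 of 26 mRpS genes (57.7%). Their median signals were 116 and 139. Genes with low numbers, taken as mRpL up to 36 and mRpS up to 21, had an optimal peak in 25 of 42 cases (59.5%). Those with higher numbers had one in 15 of 31 (48.4%). The split was by number alone, and whether each protein has a bacterial homologue was not checked.

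The shares on the chromosome arms were spread more widely. An optimal peak was found at 9 of 12 genes on 2L, 8 of 12 on 2R, 8 of 17 on 3L and 12 of 21 on 3R, but at 3 of 11 on X (27.3%), where the share over all protein-coding genes was 24.6%. On the other arms named, the share over all protein-coding genes lay between 24.5% and 27.7%. The X-linked optimal peaks were those at mRpL3, mRpL16 and mRpS25, with signals of 117, 114 and 153. Those at mRpL3 and mRpL16 were missing from the strongest 5756 of replicate 1, where they ranked 9190 and 8124. The summit at mRpS25 lay 498 bp upstream of its TSS, at the edge of the 500 bp window, and 197 bp from the start of nmdyn-D6. In the replicate lists, an overlapping region had its summit inside that window in replicate 2 only. The X-linked genes without a candidate were mRpL14, mRpL30 and mRpL33. With 11 genes the share on X rests on few genes, and the difference between arms was not tested.

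Set beside other gene lists, the mitochondrial ribosomal protein genes stood between the cytosolic ribosomal protein genes and the oxidative phosphorylation genes. The optimal share was 54.8% for mitochondrial ribosomal protein genes, against 79.6% for the 93 cytosolic ribosomal protein genes and 31% for the 84 genes of oxidative phosphorylation subunits, whose products include the partners of the proteins made on mitochondrial ribosomes. Without the symbols that end in L or in L and a digit, the oxidative phosphorylation list had 62 genes, an optimal share of 38.7% in place of 31%, and a share with no candidate of 8.06% in place of 27.4%. Median signals over genes with a candidate were 122 for the mitochondrial ribosomal protein genes, 247 for the cytosolic list and 74.9 for the oxidative phosphorylation list in either form. The highest signals ran otherwise, with 2392 at mRpS10 against 940 for the cytosolic list and 692 for oxidative phosphorylation, and the other lists had no region among the strongest 100. The opposite-strand neighbour was seen at 77.8% of the mitochondrial ribosomal protein genes with a candidate, against 42.0% of the cytosolic and 57.4% of the oxidative phosphorylation genes. Cytosolic ribosomal protein genes had an optimal peak nearly as often without such a neighbour (80.4%) as with one (89.2%).

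The remaining machinery of mitochondrial translation had optimal peaks at 7 of 26 genes (26.9%), near the 25.9% of all protein-coding genes. This list held the mitochondrial tRNA synthetases, the initiation, elongation, release and recycling factors, and tko and bonsai, which encode mitochondrial ribosomal proteins S12 and S15 under names outside the mRp rule. The strongest were ArgRS-m, a tRNA synthetase gene, with a signal of 211 (replicate ranks 3316, 1976 and 1308) and mRF1, a release factor gene, with 132 (4956, 4402 and 3623). Next came AspRS-m with 122 and PheRS-m with 120, both of them synthetase genes, and the elongation factor gene mEFTu1 with 110. tko had an optimal peak of signal 104 (replicate ranks 5644, 7314 and 6265). bonsai had no candidate, nor did mIF3, mRRF1, mRRF2 and 5 synthetase genes. The highest signal of the 26 was thus below that of each of the 10 strongest mitochondrial ribosomal protein genes.

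**Figure D5:**
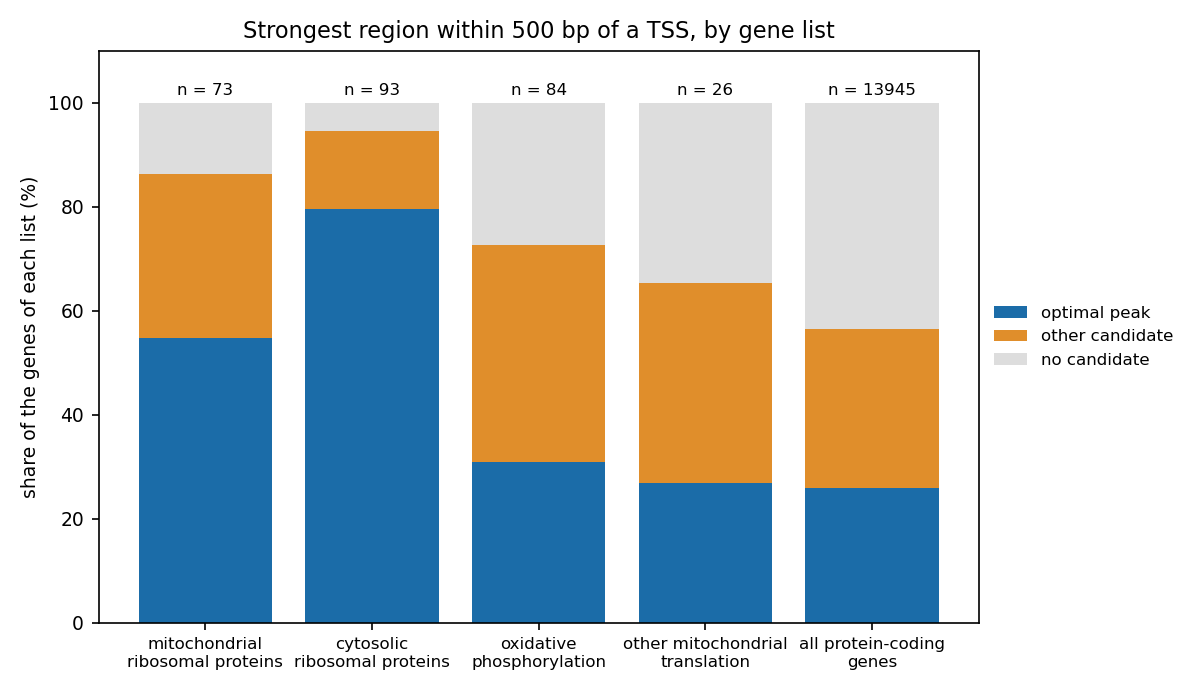
Share of genes whose strongest region within 500 bp of a TSS was an optimal peak, another candidate or absent, for the mitochondrial ribosomal protein genes, 3 other gene lists (oxidative phosphorylation with all 84 genes) and all protein-coding genes. The optimal share is 54.8% for the mitochondrial ribosomal protein genes and 25.9% for all protein-coding genes.

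Sequence around the summits was not used to choose the regions. Within 100 bp on each side, regions at mitochondrial ribosomal protein genes were 36.5% ± 8.54 G+C (SD over 63 regions), against 40.7% ± 9.05 for all 9007 regions at coding promoters. Optimal peaks at mitochondrial ribosomal protein genes were 34.4% ± 7.02 G+C (SD over 40), against 36.6% ± 6.78 for all 2882 optimal peaks at coding promoters. The ranges of single regions overlapped widely, and the difference in mean was not tested.

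Heat shock elements were counted in a 3-unit and a 2-unit form. The 3-unit element was written as GAA, TTC and GAA, each separated by 2 free bases, with at most 1 mismatch among the 9 fixed bases and on both strands. It was present in 2 of the 63 regions, counting 100 bp to either side of the summit (3.17%), against 5.4% of all promoter regions. Among optimal peaks it lay in 1 of 40, against 6.14% of promoter optimal peaks. The 2 regions were those at mRpS18A and mRpS33, and neither held an exact match. Each is printed in 30 bases on the strand of the gene, with the element in capitals.

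mRpS18A, 3R:8562698-8562727, minus strand: atttacatgAAAAATTCTCGAAtgacaaat
mRpS33, 3R:16436186-16436215, minus strand: gctgatgaaGAACCTTCGCGACtacggact

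The first lay upstream of mRpS18A, past the start of the opposite-strand neighbour CG31460, in a 5′ UTR that is not that of mRpS18A. It was 76 bp from the summit of an optimal peak of signal 118. The second lay in coding sequence, 8 bp from the summit of a candidate of signal 33.3. The shorter, 2-unit element (GAANNTTC or TTCNNGAA, no mismatch), which an exact 3-unit element contains, was found in 6 regions (9.52%), against 10.6% of promoter regions. They were mRpS2, mRpS6, mRpL21, mRpL18, mRpS18A and mRpS33. Among optimal peaks the 2-unit element lay in 5 of 40, against 11.2% of promoter optimal peaks. No region of the 4 leading genes held either form within 100 bp of its summit.

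The E-box CACGTG, a palindrome bound by factors of the Myc and USF type, was found in 6 regions (9.52%). Its share was 2.39% of promoter regions and 6.82% of the regions at cytosolic ribosomal protein genes. Among optimal peaks it lay in 4 of 40, against 2.64% of promoter optimal peaks. The 6 are printed because they cover both strong and weak regions, in 30 bases on the strand of the gene with the motif in capitals.

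mRpL23, 3L:2373686-2373715, minus strand: tgttggacaaccCACGTGcttttacacggg
mRpL27, 2L:4459768-4459797, minus strand: ttattagctaaaCACGTGacagatatatta
mRpS11, 3R:17072636-17072665, plus strand: ttaaaacaagaaCACGTGaaaatagtcttc
mRpL16, X:1890128-1890157, plus strand: attattgtgttcCACGTGcaatatggcaca
mRpS14, X:19480241-19480270, minus strand: cgcacactggcaCACGTGttcacgcgcttc
mRpS33, 3R:16436215-16436244, minus strand: tggtatccgcggCACGTGgagacgcacttg

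These were at mRpL23 (signal 1447), mRpL27 (205), mRpS11 (139), mRpL16 (114), mRpS14 (46.4) and mRpS33 (33.3). The motif lay 73, 9, 43, 28, 52 and 38 bp from the summit in that order. Counting within 50 bp left 4 genes (6.35%, against 1.13% of promoter regions), and within 250 bp there were 10 (15.9%, against 6.62%). In the promoter window, 250 bp upstream to 50 bp downstream of a TSS, it was found at 5 of the 63 genes (7.94%), against 6.27% of all protein-coding genes with a candidate, so that the gap in share was much smaller there. The E-box at mRpS33 and its heat shock element lay in the same coding stretch.

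Motifs of factors common at housekeeping promoters were counted in the same way. The DREF site TATCGATA lay within 100 bp in 5 regions (7.94%, against 7.13% of promoter regions), those at mRpS18B, mRpL10, mRpL19, mRpS29 and mRpL12. Among optimal peaks it lay in 2 of 40, against 9.4% of promoter optimal peaks. With wider windows its share was above that of the background, at 22.2% within 250 bp (14 of 63, against 11.7% of promoter regions). In the promoter window, 250 bp upstream to 50 bp downstream of a TSS, it was 25.4% (16 of 63, against 15.3% of all protein-coding genes with a candidate). Within 100 bp of the summit it was found in 30.7% of the regions at cytosolic ribosomal protein genes. The M1BP site GGTCACACT, with at most 1 mismatch, lay in 8 regions (12.7%, against 11.5% of promoter regions), among them the one at mRpS23. Its share was 3.17% within 50 bp, against 5.81% of promoter regions, and 25.4% within 250 bp, against 21%. In the promoter window it was 15.9% (10 of 63), against 25.9% of all protein-coding genes with a candidate. The NRG element, described in Drosophila at nuclear genes for mitochondrial proteins and searched on both strands as TTACGTAA, TTATATAA or TTACATAA, was found in 4 regions (6.35%, against 3.12%), at mRpL50, mRpS17, mRpS14 and mRpL39. Among optimal peaks it lay in 1 of 40, at mRpL50, against 4.2% of promoter optimal peaks. The other matches were in 3 of the 23 candidates that were not optimal. A match is a string of letters, not a bound site, and which factor was present at these regions was not measured.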

How the data were processed

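Hsf-GFP ChIP-seq of whole embryos was described by region lists in narrowPeak format for 3 biological replicates, for the pooled replicates and for the optimal peaks. Per the labels, the lists for the replicates and the pool hold peaks together with background, as input to IDR. The deposited signal is the authors' score relative to control, with a separate scale per list. The deposited −log10 q value per region was read and not used to rank. Aligner, peak caller and control handling were not given in the sources used here, and depth is unknown.

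The dm6 lists were read with Python 3.11.15 and NumPy 2.4.6 and ranked by signal within each list. The dm3 lists were not used here. Genes and TSSs came from Ensembl release 115 (annotation 6.54), and the sequence was the RefSeq assembly of the same genome release. All 73 genes had the same start and end in both annotations, and all 30000 pooled regions lay inside the arm lengths. For each gene the strongest region with a summit within 500 bp of any TSS was taken, and overlap meant 1 bp or more. A neighbour was an opposite-strand coding gene with a TSS within 500 bp of the summit. SciPy 1.17.1 gave rank correlations, matplotlib 3.10.9 the figures, and the assignment was tested on simulated regions. No p-value was computed.

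The genes, lists and tests were chosen with earlier results of these data known. Named genes were the 10 with the highest signal, 3 on each side of the lowest optimal signal, the 5 optimal ones with the most spread replicate ranks, those without a candidate, those sharing a region with a compared list, and those with a motif at the summit. Genes named for a coding summit, for lying on X or for their partner were chosen after their values were seen.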

Additional observations from a re-analysis of the deposited data

How the results depend on the processing

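Under the other settings tried, the count of mitochondrial ribosomal protein genes with an optimal peak (40) ran from 29 to 41, except that it was 22 when only optimal peaks above the median signal counted; that list is shorter by construction. Requiring the top regions of the remaining replicates, with each replicate left out in turn, gave 31 to 34. The count of genes with an opposite-strand neighbour (49) ran from 39 to 54, and the count recovered in all replicates (29) was 26 under both stricter overlaps. The median summit (-83 bp) was at -67 bp with the nearest region, -117 bp in replicate 2 and -100.5 bp in replicate 3, and between -108.75 and -95.25 bp with a replicate left out, so it stayed upstream throughout. The 3-unit heat shock element (2 genes) was found at 1 within 50 bp and at 0 without mismatch. Within 250 bp it was found at 3 genes (4.76%, against 13% of promoter regions). In the promoter window it was also found at 3 of 63 (4.76%), against 11.3% of all protein-coding genes with a candidate. Matches also grew with the window for the E-box (6 genes), with 10 within 250 bp, and for the DREF site (5), with 14 within 250 bp and 16 in the promoter window, where 15.3% of all coding genes with a candidate had it. The M1BP site (8) had 2 within 50 bp, 16 within 250 bp and 5 without mismatch. No paired analysis was possible because the 3 samples form 1 group. Depth is unknown, and the lists end at 30000 regions, so absence from a list says only that a region was not listed.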

Other observations

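The TCT initiator of ribosomal protein genes, counted here as TCTTT within 10 bp of a TSS, was found at 1 of the 73 mitochondrial ribosomal protein genes (1.37%), against 53 of the 93 cytosolic ribosomal protein genes (57%), 1 of the 84 oxidative phosphorylation genes (1.19%) and 3.38% of all protein-coding genes. This count used the annotation alone.

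Other motifs at the summits were also counted. The TATA box TATAAAA lay in 9 of the 63 regions (14.3%), counted up to 100 bp from the summit, against 12.3% of promoter regions. Among optimal peaks it lay in 8 of 40, against 15.8% of promoter optimal peaks. The GAGA factor site GAGAGAG lay in 1 region, at mRpL3 (1.59%, against 4.7%). The Zelda site CAGGTAG and the NRF-1 type site GCATGCGC lay in none of the 63, against 1.05% and 0.711% of promoter regions.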
